A study of Mus musculus with 3 samples.

Results

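The 32 genes described here are listed genes of glucose uptake, glycolysis, lactate handling and the response to low oxygen, taken from the 28692 genes of the matrix, of which 21005 had a count. All 32 were found by symbol. They were measured in single cells of 3 pancreatic tumours of KPf/fC mice with the 10x 3' v2 kit, which counts transcripts by unique molecular identifiers (UMIs). The labels do not spell out the letters of the genotype, and leave the Cre driver and the animals' age unstated. Per the labels' protocols, the cells had been sorted as lacking CD45, a surface protein of haematopoietic cells, CD31, one of endothelial cells, and PDGFRa, one of many fibroblasts. All 3 tumours share this genotype and none was treated differently, so cell classes were compared within tumours. Since no label assigns the numbered tumours to separate animals, p-values extend to these tumours only. Those of fold changes, and the standard errors, rest on a spread partly borrowed from all genes. They do not measure each gene's own spread between tumours.

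Cells were placed in a class when both of its marker genes had at least 1 UMI: Epcam and Cdh1 for epithelial cells, Dcn and Col3a1 for fibroblasts, Rgs5 and Higd1b for mural cells, Upk3b and Lrrn4 for mesothelial cells, and Pecam1 and Cdh5 for endothelial cells. Tumours 1, 2 and 3 gave 1911, 1482 and 2973 epithelial cells, 1826, 1892 and 2185 fibroblasts, and 193, 128 and 253 mural cells that passed 1 gate only. Nearly all cells of the mesothelial gate also passed the fibroblast gate (230 of 236, 74 of 74 and 58 of 63). The mesothelial class was therefore taken as the cells of that gate that passed no other gate than the fibroblast one, which gave 226, 72 and 60 cells. Endothelial cells numbered 186, 15 and 57, few of them left by the CD31 sort, and tumour 2 stayed out of comparisons with that class.

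Total UMIs ranged from 53162622 to 67262634 per tumour, and the sums per class and tumour ranged from 206127 UMIs for endothelial cells of tumour 3 to 25413813 for its epithelial cells. Summed levels of the 10 epithelial markers were 13051 to 17255 counts per 1000000 UMIs (CPM) in epithelial cells and 195 to 3390 in the other classes. All 10 mural, 8 mesothelial and 9 endothelial markers had UMIs in their own class in every tumour. In the fibroblast class the 8 fibroblast markers summed to 7413 CPM in tumour 2 against 22259 and 22332 in tumours 1 and 3. Lum, a matrix proteoglycan of fibroblasts, had a UMI in 47.3% of its cells in tumour 2 against 68.5% and 78.5%, and Pdgfra in 29.6% against 48.8% and 44.5%. In every tumour the class held only what the sort for cells lacking PDGFRa had left. Whether it held cells other than fibroblasts, in tumour 2 or elsewhere, was not tested. The same markers summed to 10530 to 14984 CPM in mesothelial and 4282 to 5380 in mural cells, and the 6 acinar markers to 2228, 69.2 and 2660 in epithelial cells. Endothelial cells of tumour 3 carried 8175 CPM of the 3 haemoglobin markers. Identical barcode sequences occurred in tumours 1 and 2 (50), 1 and 3 (65) and 2 and 3 (57).

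Glycolysis splits glucose into pyruvate in the cytosol. Glucose enters through GLUT transporters, is trapped by hexokinase and committed to the pathway by phosphofructokinase, and the pyruvate made at its end can be reduced to lactate and exported by monocarboxylate transporters. Many steps have several isozymes encoded by separate genes with different tissue patterns. When oxygen is low, the prolyl hydroxylases that mark HIF-1alpha and HIF-2alpha for destruction slow down, and the stabilised factors bind short sites with the core ACGTG or GCGTG and raise transcription of glycolytic genes and of targets such as Car9, Bnip3 and Adm. Pancreatic ductal tumours are known for dense stroma and poor perfusion.

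Levels are in CPM, the UMIs of a gene scaled to all UMIs of a class in a tumour. Differences are log2 fold changes from edgeR's quasi-likelihood test on summed counts with the tumour as a block, given with standard errors and called at an adjusted p under 0.05 over all genes tested. Against fibroblasts, 3 of 32 tested members were higher in epithelial cells and 8 lower, where 16% of all genes tested were called higher and 21.2% lower. Against mural cells, 14 of 31 were higher and 4 lower (23.3% and 18% of all genes). Against mesothelial cells, 7 of 32 were higher and 9 lower (21.4% and 19%). Against endothelial cells, over tumours 1 and 3, 13 of 30 were higher and 2 lower (13.9% and 11.2%). Between mural cells and fibroblasts, 2 of 32 were higher in mural cells and 10 lower (7.62% and 9.92%). The 4 comparisons with epithelial cells share the epithelial sums.

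The median log2 fold change of the members was -0.09 against fibroblasts, where that of all genes was -0.04. It was 0.42 against mural cells (all genes 0.13), -0.10 against mesothelial cells (0.12) and 0.77 against endothelial cells (0.16). Between mural cells and fibroblasts it was -0.72, with -0.06 for all genes. In each of the 5 comparisons, some members were called in each direction. The smaller of the counts was near or below the share of all genes called in that direction. It is therefore no result about the members. The count against fibroblasts depended on tumour 2, without which 10 members were called higher in epithelial cells, and on tumour 1, without which 1 was; with only Lum-positive fibroblasts it was 6. Against mesothelial cells, leaving out tumour 1 gave 4 higher and 16 lower.

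**Figure D1:**
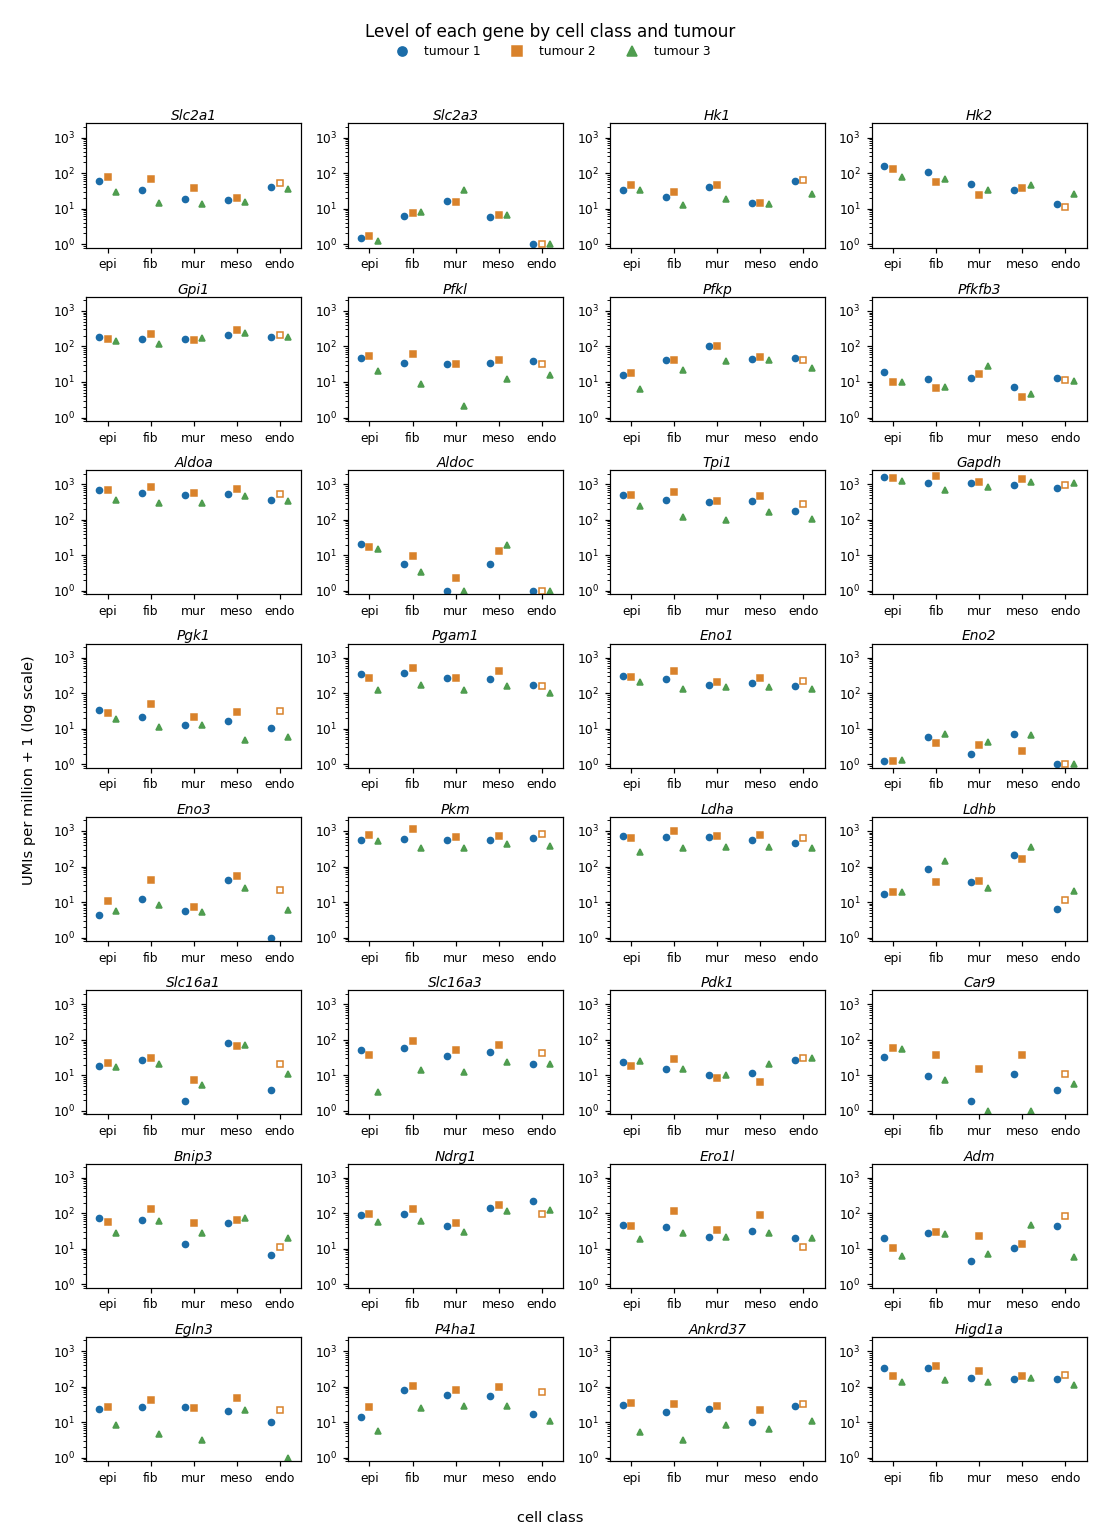
Levels of the 32 genes in CPM plus 1 (log axis) by cell class (epi, epithelial; fib, fibroblast; mur, mural; meso, mesothelial; endo, endothelial), 1 symbol per tumour; the open square marks the 15 endothelial cells of tumour 2, left out of the tests. Slc2a3 and Eno2 lie lowest in epithelial cells among the first 4 classes, Ldhb highest in mesothelial cells and Pfkp highest in mural cells of tumours 1 and 2.

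Of the glucose transporters, Slc2a1 encodes GLUT1, the carrier of most cell types and a HIF target, and Slc2a3 encodes the high-affinity GLUT3. Slc2a1 stood at 60.0, 77.4 and 28.2 CPM in epithelial cells of tumours 1, 2 and 3, and at 32.1, 67.4 and 13.5 in fibroblasts. In mural cells it reached 17.3, 35.9 and 12.7, and in mesothelial cells 16.9, 19.3 and 14.8. Epithelial cells were higher in every tumour against each of these 3 classes, and the mesothelial values lay below all epithelial ones.

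The log2 fold change of Slc2a1 was 1.46 ± 0.23 (SE, n = 3 tumours, edgeR adjusted p = 0.000432) against mural and 1.64 ± 0.25 (adjusted p = 7.01e-05) against mesothelial cells. Against fibroblasts it was 0.64 ± 0.22 and did not pass the test (adjusted p = 0.0737). Slc2a3 ran the other way. It stood at 0.525, 0.662 and 0.197 CPM in epithelial cells, from 12, 10 and 5 UMIs, and at 5.12, 6.31 and 6.85 in fibroblasts. Mural cells held 15.5, 14.1 and 31.7 CPM and mesothelial cells 4.63, 5.52 and 5.53, so none of these 3 classes overlapped the epithelial values.

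The log2 fold change of Slc2a3 between epithelial and mural cells was -5.38 ± 0.61 (adjusted p = 4.0e-05), with -3.86 ± 0.46 against fibroblasts and -3.50 ± 0.66 against mesothelial cells (adjusted p = 0.00167 and 0.00053). Mural cells also exceeded fibroblasts, by 1.64 ± 0.32 (adjusted p = 0.00814), a call lost without tumour 3 (adjusted p = 0.0864). No Slc2a3 UMI was counted in endothelial cells, where 3 counts over the 1281057 UMIs of tumours 1 and 3 would be 2.34 CPM, above the epithelial level, so no fold is given.

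Hexokinases phosphorylate glucose. Hk1 is the widespread form and Hk2 the inducible form of muscle, fat and many tumours. Hk2 stood at 161, 131 and 77.8 CPM in epithelial cells and 106, 56.3 and 65.7 in fibroblasts. It reached 49.2, 23.1 and 32.8 in mural cells and 32.9, 37.3 and 44.3 in mesothelial cells. Endothelial cells of tumours 1 and 3 held 12.1 and 24.3, from 13 and 5 UMIs. Epithelial cells lay above the other classes in every tumour, without overlap except with fibroblasts.

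The log2 fold change of Hk2 was 3.29 ± 0.40 against endothelial cells (n = 2 tumours, adjusted p = 6.08e-15), 1.88 ± 0.23 against mural cells and 1.68 ± 0.24 against mesothelial cells (adjusted p = 6.26e-05 and 3.97e-05). The endothelial difference was 1.77 in the same tumours when cells were kept in every gate they passed. Against fibroblasts it was 0.61 ± 0.21 and was not called (adjusted p = 0.0706). Mural cells had less Hk2 than fibroblasts (-1.19 ± 0.19, adjusted p = 0.00294).

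Hk1 was flatter. Epithelial cells had 32.4, 43.7 and 32.6 CPM, fibroblasts 19.97, 28.3 and 11.97, mural cells 39.2, 44.9 and 18.0 and mesothelial cells 13.1, 13.8 and 12.9. It was higher in epithelial cells than in fibroblasts (0.84 ± 0.22, adjusted p = 0.0296) and mesothelial cells (1.35 ± 0.25, adjusted p = 0.000459), with no overlap in either case. Against mural cells the difference was 0.22 ± 0.24 (adjusted p = 0.487) and against endothelial cells -0.38 ± 0.37 (adjusted p = 0.539).

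As a share of the UMIs of both hexokinases, Hk1 made up 23.8% ± 6.49 (SD, n = 3 tumours) in epithelial cells, 21.6% ± 10.3 in fibroblasts and 26.0% ± 3.06 in mesothelial cells. In mural cells it made up 48.6% ± 15.8, and in endothelial cells 83.3% and 50% in tumours 1 and 3. Such shares rest on 3' capture, which can differ between genes, and so were compared between classes and not read as molar ratios. The mural share was 27.0 points above that of fibroblasts (SD 6.43), higher in 3 of 3 tumours.

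The exact two-sided sign-flip test over 3 tumours cannot go below p = 0.25, the value it gave here. None of the 20 tests of this kind, for 4 pairs and 5 comparisons, could therefore be called, and the smallest adjusted p over the 20 was 0.5.

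**Figure D2:**
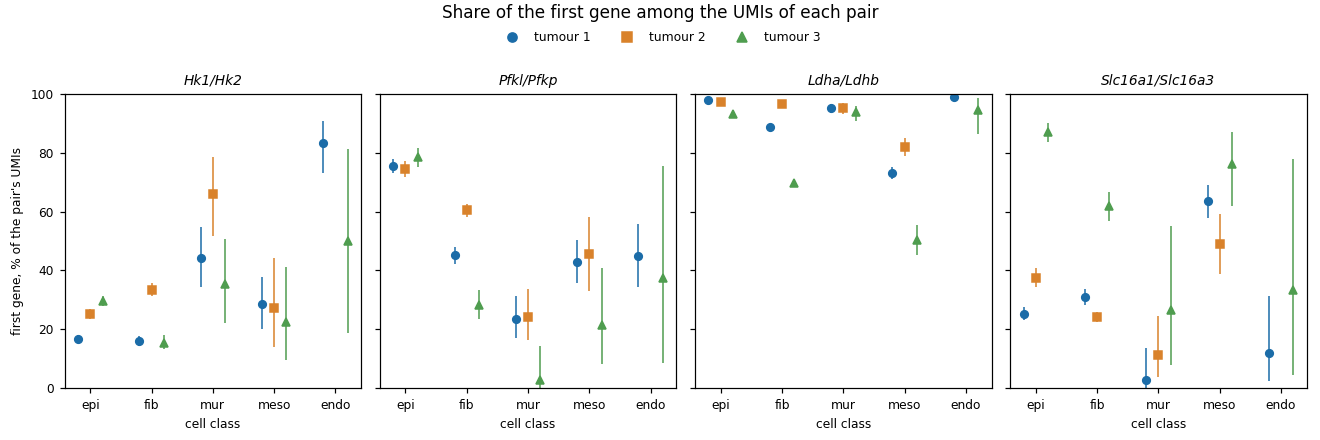
Share of the first-named gene among the UMIs of each isozyme or transporter pair (y axis, percent) by cell class, 1 symbol per tumour with the exact binomial 95% interval, which covers counting error only; abbreviations as in the plot of levels. Pfkl makes up 74.5% to 78.4% in epithelial cells and 2.70% to 24.3% in mural cells, and Ldha is lowest in mesothelial cells at 50.4% to 82.0%.

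Phosphofructokinase commits sugar to glycolysis. Pfkl encodes the liver form and Pfkp the platelet form, and Pfkfb3 makes fructose 2,6-bisphosphate, its strong activator. Pfkp stood at 14.8, 17.5 and 5.35 CPM in epithelial cells, 39.5, 39.7 and 20.1 in fibroblasts, and 100.2, 99.96 and 38.0 in mural cells. Mesothelial cells held 43.8, 49.7 and 40.6, and endothelial cells of tumours 1 and 3 held 45.6 and 24.3. Epithelial values lay below every other class in each tumour and did not overlap any of them.

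Pfkp was lower in epithelial than in mural cells by -2.59 ± 0.19 (adjusted p = 1.4e-06), and by -1.57 ± 0.20 against fibroblasts, -1.95 ± 0.27 against mesothelial and -1.64 ± 0.47 against endothelial cells (adjusted p = 0.00215, 3.12e-05 and 0.00268). It was the only member called lower in epithelial cells in all 4 comparisons. Mural cells exceeded fibroblasts by 1.15 ± 0.19 (adjusted p = 0.00326).

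Pfkl stood at 45.4, 51.2 and 19.4 in epithelial cells, 32.4, 60.4 and 7.84 in fibroblasts, 31.0, 32.04 and 1.06 in mural cells, the last being 1 UMI, and 32.9, 41.4 and 11.1 in mesothelial cells. Only the difference between epithelial and mural cells passed the test (1.09 ± 0.35, adjusted p = 0.0282), and the values overlapped. Pfkl made up 76.1% ± 2.02 of the pair's UMIs in epithelial cells (SD, n = 3). The share was 44.5% ± 16.1 in fibroblasts, 36.6% ± 13.2 in mesothelial cells and 16.9% ± 12.3 in mural cells. It was higher in epithelial cells in 3 of 3 tumours against each of the 3 classes, by 31.6 (SD 18.1), 39.6 (SD 15.2) and 59.3 (SD 14.3) points, each with exact p = 0.25. In endothelial cells it was 44.9% and 37.5%.

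Pfkfb3 was higher in epithelial than in mesothelial cells (1.39 ± 0.39, adjusted p = 0.00906) and was called in no other comparison of classes. Between mural cells and fibroblasts its difference was 1.14 ± 0.41 (adjusted p = 0.0981), higher in 3 of 3 tumours.

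The genes of the steps from glucose 6-phosphate to pyruvate mostly encode the shared enzymes: Gpi1 the isomerase, Aldoa the main aldolase, Tpi1, Gapdh, Pgk1, Pgam1, the common enolase Eno1, and Pkm, pyruvate kinase. Against fibroblasts none of these 8 was called, with fold changes from -0.58 for Pgam1 to 0.35 for Gapdh. Against mural cells 6 of the 8 were higher in epithelial cells: Aldoa, Tpi1, Gapdh, Pgk1, Eno1 and Pkm, by 0.42 (Pkm) to 0.94 (Pgk1). Against endothelial cells another set of 6 was higher, with Pgam1 in place of Pkm, by 0.70 (Aldoa) to 1.95 (Pgk1).

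Pgk1, phosphoglycerate kinase, stood at 33.0 and 17.2 CPM in epithelial cells of tumours 1 and 3 and at 9.30 and 4.85 in endothelial cells, from 10 and 1 UMIs, a call that DESeq2 did not make (adjusted p = 0.14). With cells kept in every gate they passed it was 1.34 (adjusted p = 0.0123) in the same tumours and 0.92 (adjusted p = 0.0578) with tumour 2, which then reached 20 cells. Mural cells had less Pgam1 than fibroblasts (-0.70 ± 0.16, adjusted p = 0.0178). Against mesothelial cells only Gpi1 was called of the 8, lower in epithelial cells (-0.64 ± 0.16, adjusted p = 0.0041). Gapdh, Pgk1, Aldoa, Eno1, Ldha, Tpi1 and Pgam1 have near-identical copies or pseudogenes in the mouse genome, so reads may have been split or dropped in counting and their levels are uncertain.

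The minor isozymes differed more. Aldoc encodes aldolase C, known from brain. It stood at 20.2, 15.6 and 13.9 CPM in epithelial cells, 4.54, 8.34 and 2.39 in fibroblasts and 4.63, 12.4 and 18.4 in mesothelial cells. Mural cells held 1 Aldoc UMI in all and endothelial cells none. Epithelial values did not overlap those of fibroblasts, mural or endothelial cells.

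Aldoc was higher in epithelial cells than in fibroblasts by 1.74 ± 0.36 (adjusted p = 0.0129) and was called against mural and endothelial cells too (adjusted p = 9.09e-05 and 1.02e-06). Over the pooled sums it was 46.8-fold higher than in mural cells, with an exact 95% counting interval of 8.37 to 1848. Against endothelial cells it was at least 7.19-fold higher, with 3 counts over the endothelial sums as the floor, while cells kept in every gate they passed gave, in the same tumours, a log2 fold change of 2.06 (adjusted p = 0.00245). With Aldoc at that bound, the members' median against endothelial cells stayed 0.77. Fibroblasts exceeded mural cells 16.1-fold (2.86 to 636), a call with adjusted p = 0.0219 that was lost without tumour 1 or tumour 2 (0.0734 and 0.0703).

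Eno2 and Eno3 encode the enolases known from neurons and from muscle. Eno2 stood at 0.263, 0.199 and 0.315 CPM in epithelial cells, from 6, 3 and 8 UMIs. Fibroblasts held 4.86, 3.09 and 6.11 and mesothelial cells 5.90, 1.38 and 5.53, from 14, 1 and 3 UMIs. The log2 fold changes were -4.22 ± 0.34 and -4.13 ± 0.72 (adjusted p = 0.000492 and 0.000268). Against mural and endothelial cells Eno2 did not pass the filter on low counts.

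Eno3 was highest in mesothelial cells, at 40.0, 52.5 and 24.0, against 3.24, 9.53 and 4.68 in epithelial and 4.56, 6.41 and 4.23 in mural cells, with no overlap. Fibroblasts held 11.5, 41.4 and 7.01. Epithelial cells had less than mesothelial cells (-2.95 ± 0.31, adjusted p = 1.42e-06) and fibroblasts (-1.62 ± 0.34, adjusted p = 0.0134). Mural cells had less than fibroblasts (-1.83 ± 0.41, adjusted p = 0.0155), a call lost without tumour 2 (-1.14, adjusted p = 0.163) and with Lum-positive fibroblasts only (-0.93, adjusted p = 0.141).

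**Figure D3:**
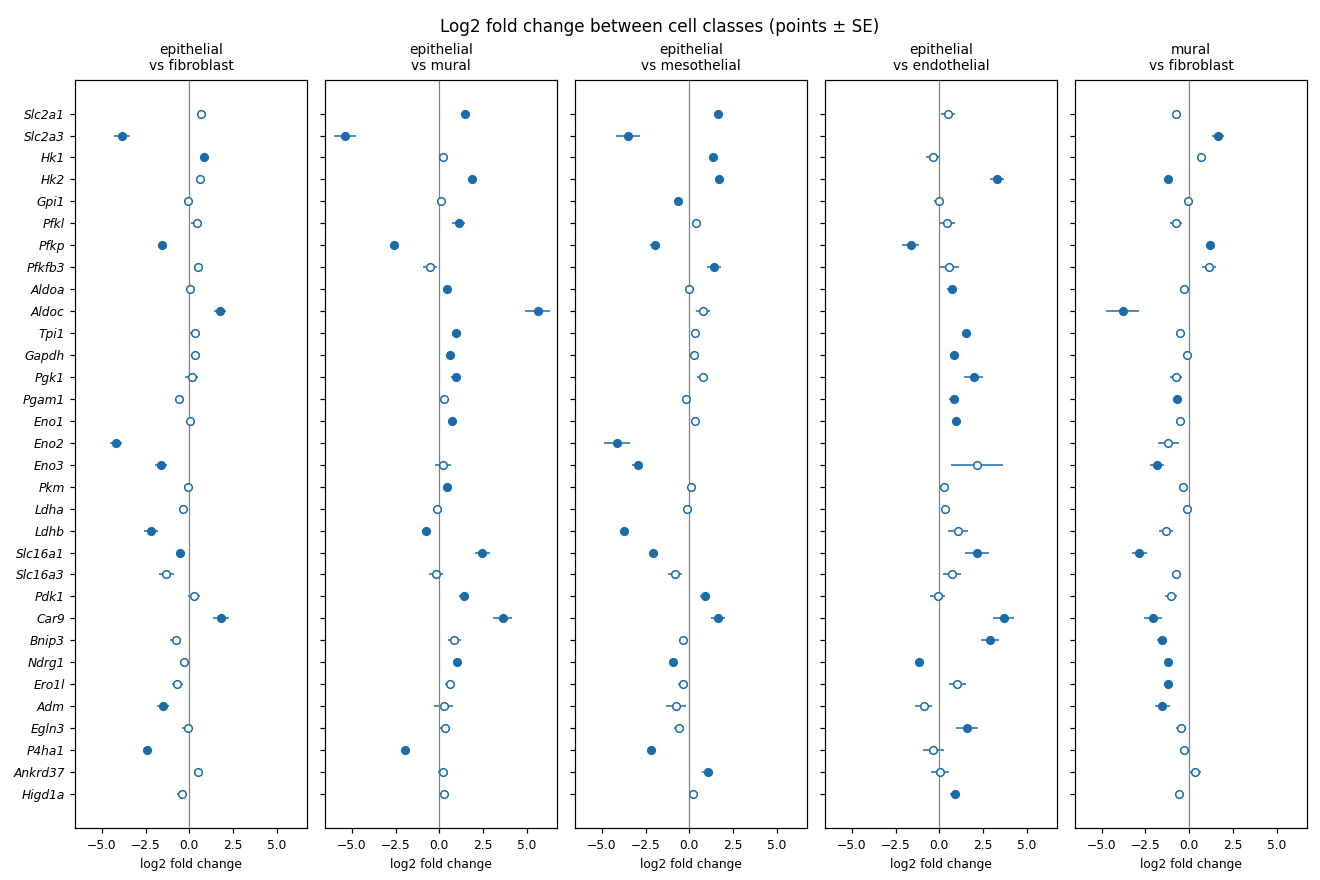
Log2 fold change (x axis) with its standard error for each gene in the 5 comparisons between cell classes; filled points passed an edgeR adjusted p of 0.05, and Aldoc against endothelial cells is not drawn because none was counted there. Pfkp lies left of 0 in all 4 comparisons with epithelial cells, Car9 lies right of 0 in all 4, and most points in the panel of mural cells against fibroblasts lie left of 0.

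Lactate dehydrogenase interconverts pyruvate and lactate, Ldha encoding the subunit known from glycolytic tissue and a HIF target, Ldhb the heart-type subunit. Ldha showed no called difference in any of the 5 comparisons, with fold changes from -0.38 to 0.31. Its levels were 732, 644 and 249.7 in epithelial cells, 679, 982 and 327 in fibroblasts, 699, 734 and 364 in mural cells, and 555, 747 and 356 in mesothelial cells. Tumour 3 was lowest in each class.

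Ldhb separated the classes. Epithelial cells held 16.2, 18.5 and 18.5 CPM, fibroblasts 85.6, 35.5 and 143, mural cells 35.5, 37.2 and 24.3, and mesothelial cells 204, 164 and 350.4. None of these 3 classes overlapped the epithelial values. The mesothelial values lay above all others. Ldhb was lower in epithelial than in mesothelial cells by -3.76 ± 0.21 (adjusted p = 1.23e-09), than in fibroblasts by -2.19 ± 0.39 (adjusted p = 0.00707) and than in mural cells by -0.76 ± 0.23 (adjusted p = 0.0232). Against endothelial cells it was 1.08 ± 0.58 and not called (adjusted p = 0.179).

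Ldha made up 96.1% ± 2.57 of the pair's UMIs in epithelial cells, 94.7% ± 0.831 in mural cells, 85.0% ± 13.9 in fibroblasts and 68.5% ± 16.3 in mesothelial cells (SD, n = 3). By tumour, the mesothelial share was 73.1%, 82.0% and 50.4%, and the fibroblast share 88.8%, 96.5% and 69.6%. Epithelial cells exceeded mesothelial cells in 3 of 3 tumours, by 27.6 points (SD 13.95, exact p = 0.25). The epithelial and mural shares differed by 1.36 points (SD 1.75, exact p = 0.5), by 0.027 points in thinned cells, and by 0.70 without tumour 1 and 2.35 without tumour 3.

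Slc16a1 encodes the monocarboxylate transporter MCT1 and Slc16a3 encodes MCT4, the hypoxia-inducible lactate exporter. Slc16a1 stood at 17.3, 21.8 and 16.1 CPM in epithelial cells, 25.4, 29.6 and 20.6 in fibroblasts and 78.4, 67.6 and 70.1 in mesothelial cells. Mural cells held 0.911, 6.41 and 4.23, from 1, 5 and 4 UMIs, and endothelial cells of tumours 1 and 3 held 2.79 and 9.70, from 3 and 2 UMIs. Mesothelial values lay above all others and mural values below those of epithelial cells and fibroblasts.

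Slc16a1 was lower in epithelial than in mesothelial cells by -2.05 ± 0.21 (adjusted p = 1.03e-06) and than in fibroblasts by -0.53 ± 0.16 (adjusted p = 0.0461). It was higher than in mural cells by 2.45 ± 0.44 (adjusted p = 0.001) and than in endothelial cells by 2.15 ± 0.69 (adjusted p = 0.00962), the last resting on 3 and 2 endothelial UMIs. DESeq2 did not make that call (adjusted p = 0.262), and with cells kept in every gate they passed the difference was 0.91 (adjusted p = 0.175) in the same tumours and 0.69 (adjusted p = 0.241) with tumour 2. Mural cells had less than fibroblasts (-2.87 ± 0.43, adjusted p = 0.00209).

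Slc16a3 was lowest in tumour 3 in each of 4 classes, at 51.1, 36.3 and 2.40 in epithelial cells, 56.8, 93.4 and 12.8 in fibroblasts, 34.6, 49.98 and 11.6 in mural cells, and 45.1, 70.4 and 22.1 in mesothelial cells. No difference between classes was called, the nearest being -1.33 ± 0.43 against fibroblasts (adjusted p = 0.0558). Slc16a1 made up 25.3%, 37.5% and 87.1% of the pair's UMIs in epithelial cells of tumours 1, 2 and 3. The share was 62.8% ± 13.5 in mesothelial cells and 13.5% ± 12.2 in mural cells (SD, n = 3). It was higher in epithelial than in mural cells in 3 of 3 tumours, by 36.4 points (SD 20.8, exact p = 0.25).

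Pdk1, the kinase that switches off pyruvate dehydrogenase, was higher in epithelial than in mural (1.42 ± 0.28, adjusted p = 0.00204) and mesothelial cells (0.91 ± 0.30, adjusted p = 0.0247).

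The remaining 9 members are targets of the hypoxia response outside glycolysis. Car9 encodes carbonic anhydrase IX, a surface enzyme used as a marker of hypoxic tumour. It stood at 32.6, 59.1 and 55.5 CPM in epithelial cells and at 8.51, 37.0 and 6.27 in fibroblasts. Mural cells held 0.911, 14.1 and 0, from 1, 11 and 0 UMIs, and mesothelial cells 9.69, 35.9 and 0. Endothelial cells of tumours 1 and 3 held 2.79 and 4.85, from 3 and 1 UMIs. Epithelial cells were higher in every tumour against every class.

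Car9 was called higher in epithelial cells in all 4 comparisons: by 1.80 ± 0.48 against fibroblasts (adjusted p = 0.0307), 3.61 ± 0.53 against mural, 1.64 ± 0.40 against mesothelial and 3.67 ± 0.61 against endothelial cells (adjusted p = 0.000272, 0.004 and 3.07e-08). It was the only member so called, with the endothelial call resting on 3 and 1 endothelial UMIs. The call against fibroblasts was lost without tumour 1 (1.92, adjusted p = 0.0758). Fibroblasts exceeded mural cells (-2.07 ± 0.49 for mural against fibroblast, adjusted p = 0.0196), a call lost with Lum-positive fibroblasts only (-1.23, adjusted p = 0.145).

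P4ha1 encodes the catalytic subunit of collagen prolyl 4-hydroxylase and ran the other way, at 12.5, 26.3 and 4.68 in epithelial cells against 78.3, 104 and 24.1 in fibroblasts, 58.3, 80.7 and 27.5 in mural cells, and 54.8, 95.3 and 27.7 in mesothelial cells. It was lower in epithelial cells by -2.41 ± 0.18, -1.98 ± 0.23 and -2.18 ± 0.22 (adjusted p = 0.000399, 5.15e-05 and 1.26e-06), in 3 of 3 tumours each. Of these 3 classes, only fibroblasts overlapped the epithelial values.

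Bnip3, a mitophagy receptor, stood at 71.5, 57.3 and 26.8 in epithelial cells, 63.9, 128 and 58.7 in fibroblasts and 12.8, 52.5 and 27.5 in mural cells. Endothelial cells of tumours 1 and 3 held 5.58 and 19.4, from 6 and 4 UMIs. Epithelial cells exceeded endothelial cells (2.87 ± 0.52, adjusted p = 4.04e-07), which DESeq2 did not call (2.40, adjusted p = 0.0551). Most of that gap lay in tumour 1. Mural cells had less Bnip3 than fibroblasts (-1.57 ± 0.26, adjusted p = 0.00379). Adm, the vasodilator peptide adrenomedullin, was higher in fibroblasts than in epithelial (-1.50 ± 0.36 for epithelial against fibroblast, adjusted p = 0.0217) and mural cells (adjusted p = 0.0375).

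Ndrg1, a stress-induced gene, was lower in epithelial than in mesothelial and endothelial cells (-0.92 and -1.14, adjusted p = 0.000266 and 0.000386) and higher than in mural cells (1.03, adjusted p = 0.000893), which were also below fibroblasts (-1.22, adjusted p = 0.00198). Ero1l, an oxidase of the endoplasmic reticulum, was lower in mural cells than in fibroblasts (-1.19 ± 0.28, adjusted p = 0.0193). Ankrd37, Higd1a and Egln3, the prolyl hydroxylase that is itself a HIF target, were each called in 1 comparison, higher in epithelial cells: Ankrd37 against mesothelial cells by 1.04, and Higd1a and Egln3 against endothelial cells by 0.91 and 1.56 (adjusted p = 0.0207, 0.00539 and 0.0491). Ankrd37 was lower in 1 of the 3 tumours. The Egln3 call rested on 10 and 0 endothelial UMIs in tumours 1 and 3.

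Other genes of these pathways, from lists of 9, 17 and 18 that are no members, were measured alongside. Of all genes, 16% were called higher and 21.2% lower in epithelial cells than in fibroblasts. The shares were 23.3% and 18% against mural, 21.4% and 19% against mesothelial, and 13.9% and 11.2% against endothelial cells. They were 7.62% and 9.92% for mural cells against fibroblasts. Counts of these short lists near such shares are no result about the lists. Of the HIF pathway genes, Epas1, which encodes HIF-2alpha, stood at 308, 283 and 486 CPM in mural cells, 10.0, 10.5 and 24.8 in epithelial cells and 13.6, 5.48 and 21.5 in fibroblasts. It was lower in epithelial than in mural cells by -4.56 ± 0.18 (adjusted p = 1.38e-08), and mural cells exceeded fibroblasts by 4.81 ± 0.28 (adjusted p = 1.76e-05). Of this list, 1 was called higher and 3 lower of 9 tested against fibroblasts, and 0 and 2 of 7 against mural, 2 and 1 of 9 against mesothelial and 0 and 2 of 9 against endothelial cells, where Epas1 and Hif1a were lower.

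Of the 17 other hypoxia targets, all tested, 1 was higher and 7 lower in epithelial cells than in fibroblasts. The counts were 3 and 4 against mural, 5 and 7 against mesothelial and, of 16 tested, 2 and 1 against endothelial cells. Ndufa4l2, a mitochondrial gene known from pericytes, stood at 1073, 870.1 and 825 in mural cells, 76.0, 107 and 38.3 in fibroblasts and 2.41, 2.98 and 0.944 in epithelial cells. Its log2 fold change was -8.77 ± 0.30 between epithelial and mural cells and 3.69 ± 0.26 between mural cells and fibroblasts (adjusted p = 4.2e-09 and 4.13e-05).

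The collagen-modifying genes Lox (-5.67) and Plod2 (-4.80) were lower in epithelial cells than in fibroblasts, as P4ha1 was. Vegfa, the angiogenic factor, was higher in epithelial than in mural cells (3.11 ± 0.32, adjusted p = 1.71e-05), with 101, 83.7 and 48.4 CPM against 21.0, 3.84 and 4.23. Against endothelial cells of tumours 1 and 3 it was higher by 5.03 (edgeR adjusted p = 1.97e-17). That value rests on 4 and 0 endothelial UMIs, so its size is uncertain.

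Of the 18 other glycolytic and pyruvate genes, 12 to 14 were tested in each comparison of classes and 1 to 5 called. Slc2a4, the insulin-regulated transporter GLUT4, stood at 14.6, 14.1 and 31.7 in mural cells and under 1 CPM in epithelial cells and fibroblasts. Mural cells exceeded fibroblasts by 5.93 ± 0.50 (adjusted p = 0.000102).

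Whether the members moved together among epithelial cells was examined by splitting those cells at a fixed depth. Each cell with at least 3000 UMIs was thinned to 3000, and cells with a UMI left of Egln3 were set against the rest. In tumours 1, 2 and 3, 124 of 1911, 124 of 1482 and 59 of 2882 cells had one (6.49%, 8.37% and 2.05%), and before thinning 15.1%, 17.9% and 5.38%. Tumour 3 left out 91 shallower cells. No class here is known to lack Egln3, so its share from free RNA was not tested.

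Of 29 members tested, 21 were higher in the Egln3-detected cells and 0 lower, where 0.892% of all 9983 genes tested were called higher and 0.571% lower. The members' median difference was 0.81, and that of all genes -0.02. The largest differences among members higher in every tumour were those of Adm, Ankrd37, Bnip3, Slc16a3, Ero1l and Slc2a1.

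Adm stood at 156, 45.7 and 22.6 CPM in the detected cells of tumours 1, 2 and 3 and at 14.7, 9.82 and 5.08 in the others, a log2 fold change of 2.94 ± 0.28 (adjusted p = 2.18e-22). Ankrd37 stood at 148, 96.8 and 5.65 against 23.9, 24.3 and 4.49 (2.31 ± 0.24, adjusted p = 1.21e-18), the tumour 3 value being 1 UMI. Bnip3 stood at 341, 164 and 28.2 against 60.1, 53.3 and 26.1 (1.93 ± 0.18, adjusted p = 5.54e-22). Adm alone of these 3 did not overlap between the groups. The tumour 3 values of Adm and Bnip3 in the 59 detected cells also rest on few UMIs. On the log2 scale of CPM plus 1, Bnip3 differed by 2.49, 1.60 and 0.11 in tumours 1, 2 and 3. Ankrd37 differed by 2.58, 1.95 and 0.28, and the standard errors of both do not show this spread.

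Slc16a3 stood at 156, 72.6 and 16.9 against 37.3, 28.2 and 2.01 (1.88 ± 0.23, adjusted p = 1.15e-12), the value of 16.9 being 3 UMIs. Ero1l stood at 185, 94.1 and 22.6 against 35.3, 39.5 and 16.9 (1.78 ± 0.21, adjusted p = 8.14e-14). Slc2a1 stood at 202, 151 and 33.9 against 51.1, 70.4 and 24.9 (1.46 ± 0.19, adjusted p = 2.22e-11). In all 3 genes tumours 1 and 2 showed the larger differences on the scale of CPM, and tumour 3 values were low in both groups. On the log2 scale of CPM plus 1, Slc16a3 differed most in tumour 3, by 2.58 against 2.03 and 1.33 in tumours 1 and 2. Ero1l and Slc2a1 differed least in tumour 3 on that scale.

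Glycolytic enzymes rose by smaller amounts: Pgk1 by 1.38, Pfkl by 1.13, Hk2, Pgam1, Aldoa, Tpi1 and Ldha by 0.80 to 0.81, Gapdh by 0.63, Gpi1 by 0.56 and Eno1 by 0.50 (adjusted p = 0.0442 for Eno1, the highest of the 21). Pfkfb3 (1.55), Ndrg1 (1.39), P4ha1 (1.34), Pdk1 (1.11) and Higd1a (0.92) were called as well. Pfkfb3, Ndrg1, Pfkl, Higd1a and Pgam1 were lower in the detected cells of tumour 3. Not called were Pfkp (1.20, adjusted p = 0.0517), Slc16a1, Hk1, Eno3, Car9 (0.50 ± 0.22, adjusted p = 0.461), Pkm, Ldhb and Aldoc. Slc2a3 and Eno2 did not pass the filter, and Egln3 was left out as the splitting gene.

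Within the pairs, Hk2, Pfkl, Ldha and Slc16a3 were called and Hk1, Pfkp, Ldhb and Slc16a1 were not. Pfkp, though not called, differed by more than Pfkl, which was lower in the detected cells of tumour 3. Hk1 and Slc16a1, also not called, were higher in every tumour. The differences between the members of a pair were not tested, so the calls do not separate them. Of the other hypoxia targets 4 of 14 tested were higher: Fam162a (1.11), Vegfa (1.10), P4ha2 (1.09) and Mxi1 (1.07). None of 11 other glycolytic and pyruvate genes and none of 7 HIF pathway genes was called by edgeR. At an unadjusted p under 0.05 there were 0 and 3. The share of all genes at that cut is not given, so these counts have no background.

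Acinar genes moved with this split. The 6 acinar markers summed to 212, 48.4 and 147 CPM in the detected cells and to 2839, 90.8 and 2154 in the others. In tumour 2, the differences of Adm, Bnip3, Ankrd37 and Slc2a1 were 2.11, 1.60, 1.95 and 1.09 on the log2 scale of CPM plus 1. Median UMIs before thinning were 10238, 7401 and 7274 in the detected cells and 10618, 9125 and 7890 in the others, and the part of acinar RNA or depth in the result was not tested. Without tumour 1, 10 members were called higher, DESeq2 called 12, and without the tumour block none was.

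**Figure D4:**
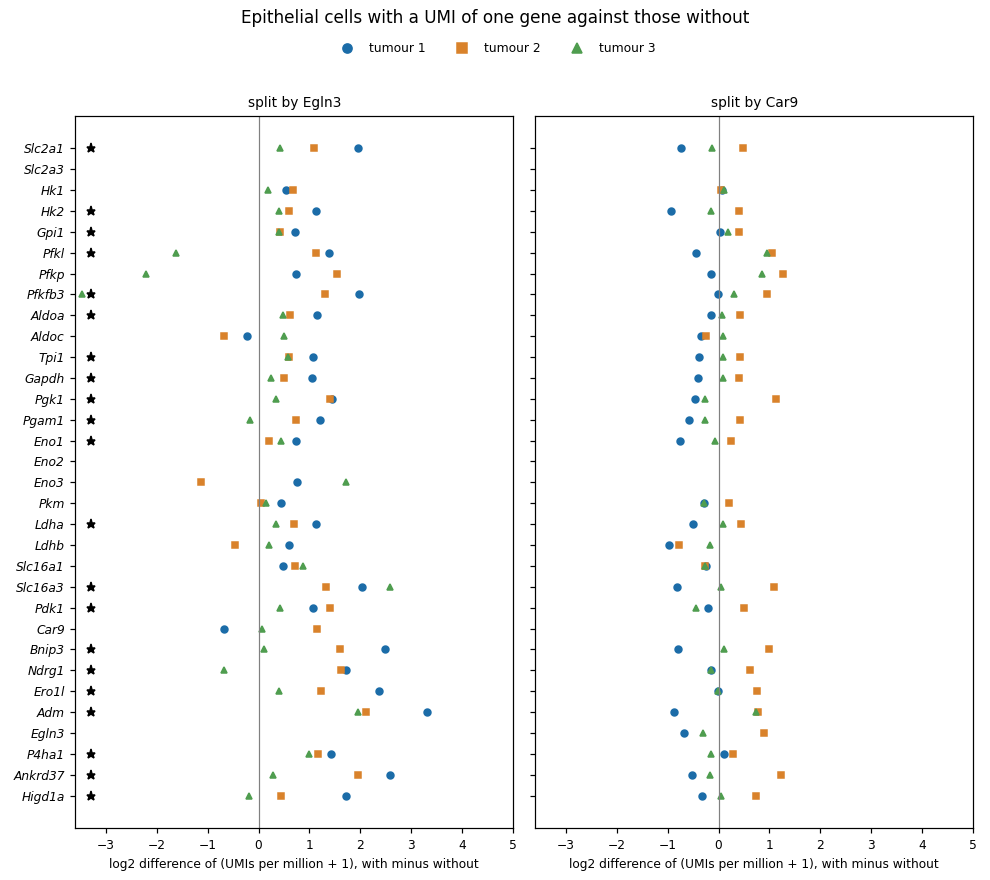
Log2 difference in CPM plus 1 (x axis) between epithelial cells with and without a UMI of Egln3 (left) or Car9 (right), at 3000 UMIs per cell, for each tested gene and tumour; stars mark genes with an edgeR adjusted p under 0.05. Tumour 1 and 2 symbols lie right of 0 for most genes on the left, while on the right tumour 2 lies mostly right and tumour 1 mostly left of 0.

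Sequences before the start sites of 5 of these genes are shown because the members that rose with Egln3 include known HIF targets; the capitals mark each ACGTG or GCGTG on either strand, read on the reverse strand as CACGT or CACGC. They come from RefSeq (build GRCm38.p6) and cover the 250 bases before an annotated start of each gene. No source used here names the build of the deposited counts.
Egln3, chr12:54203875-54204124, minus strand: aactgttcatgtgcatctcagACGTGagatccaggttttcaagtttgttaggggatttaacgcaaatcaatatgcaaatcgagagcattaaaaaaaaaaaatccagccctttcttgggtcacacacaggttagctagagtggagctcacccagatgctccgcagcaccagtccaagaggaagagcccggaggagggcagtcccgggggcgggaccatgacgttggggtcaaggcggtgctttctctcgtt
Adm, chr7:110627407-110627656, plus strand: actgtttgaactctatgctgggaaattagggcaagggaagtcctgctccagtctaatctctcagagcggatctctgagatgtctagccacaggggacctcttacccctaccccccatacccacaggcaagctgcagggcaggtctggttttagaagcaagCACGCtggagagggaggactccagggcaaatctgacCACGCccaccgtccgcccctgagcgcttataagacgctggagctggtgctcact
Bnip3, chr7:138909507-138909756, minus strand: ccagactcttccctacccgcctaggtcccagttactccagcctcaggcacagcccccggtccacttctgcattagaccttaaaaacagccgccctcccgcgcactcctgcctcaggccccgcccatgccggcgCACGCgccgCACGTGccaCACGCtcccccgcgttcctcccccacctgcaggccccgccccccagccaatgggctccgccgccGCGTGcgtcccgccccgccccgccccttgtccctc
Slc16a3, chr11:120948817-120949066, plus strand: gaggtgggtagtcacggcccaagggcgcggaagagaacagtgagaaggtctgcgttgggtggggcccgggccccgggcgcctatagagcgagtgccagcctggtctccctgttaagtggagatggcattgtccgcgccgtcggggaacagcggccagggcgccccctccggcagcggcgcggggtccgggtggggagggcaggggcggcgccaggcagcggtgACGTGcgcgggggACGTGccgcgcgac
Car9, chr4:43506776-43507025, plus strand: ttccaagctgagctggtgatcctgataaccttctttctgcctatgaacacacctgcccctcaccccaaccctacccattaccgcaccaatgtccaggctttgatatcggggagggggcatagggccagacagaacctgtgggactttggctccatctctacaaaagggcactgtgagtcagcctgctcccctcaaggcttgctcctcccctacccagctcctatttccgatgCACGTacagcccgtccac

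Bnip3 held 5 matches, Adm and Slc16a3 2 each, and Egln3 and Car9 1 each. Overlapping matches were counted separately. Promoters were found for 30 of the 32 members, Ero1l under its newer name Ero1a. At least 1 window with a match was found for 27 of the 30 (90%) and for 18 of the 20 called higher in Egln3-detected cells with a promoter (90%), against 41.5% of 27025 genes and 38.6% of 32851 windows of the same length. Car9, not called in that split, also held one. A match is a string of letters and not a bound site. The members called in the split had the same share as all members. The comparison set was not limited to genes tested here or matched in base content. Since the members were listed as glycolysis and hypoxia genes, these shares do not test control by HIF.

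The same split by Car9 gave another picture. At 3000 UMIs, 178 of 1911, 248 of 1482 and 417 of 2882 epithelial cells had a Car9 UMI (9.31%, 16.7% and 14.5%; unthinned 21.6%, 32.3% and 28.8%). In mural cells 1 of 193, 2 of 128 and 0 of 148 had one, the last allowing up to 2.03% (3 counts of 148 cells; exact 95% upper limit 2.46%). These cells were thinned to 3000 UMIs too, and class medians before thinning were 3251 to 5354 UMIs in mural and 7727 to 10616 in epithelial cells. Of 28 members tested, 0 were called higher and 0 lower by edgeR, where 0.688% of 10033 genes were called higher and 0.528% lower. At an unadjusted p under 0.05 there were 3, with no share of all genes given at that cut, and DESeq2 called 0.

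The members' median difference was 0.19 (all genes -0.01). The tumours differed in direction: Bnip3 stood at 46.8, 108 and 28.0 in Car9-detected cells against 81.6, 53.5 and 25.8 in the others. Ankrd37 stood at 22.5, 59.1 and 3.997 against 32.9, 24.6 and 4.60. Both were lower in detected cells of tumour 1 and higher in those of tumour 2. Egln3 itself stood at 16.9, 52.4 and 5.60 against 27.5, 27.8 and 7.17 (0.28 ± 0.28, adjusted p = 0.813). Without tumour 1, 7 members were called higher. In tumour 1 the acinar markers summed to 7468 CPM in Car9-detected cells and 2175 in the others, against 164 and 71.9 in tumour 2; their part in the result was not tested. The 2 splits were not tested against each other.

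**Figure D5:**
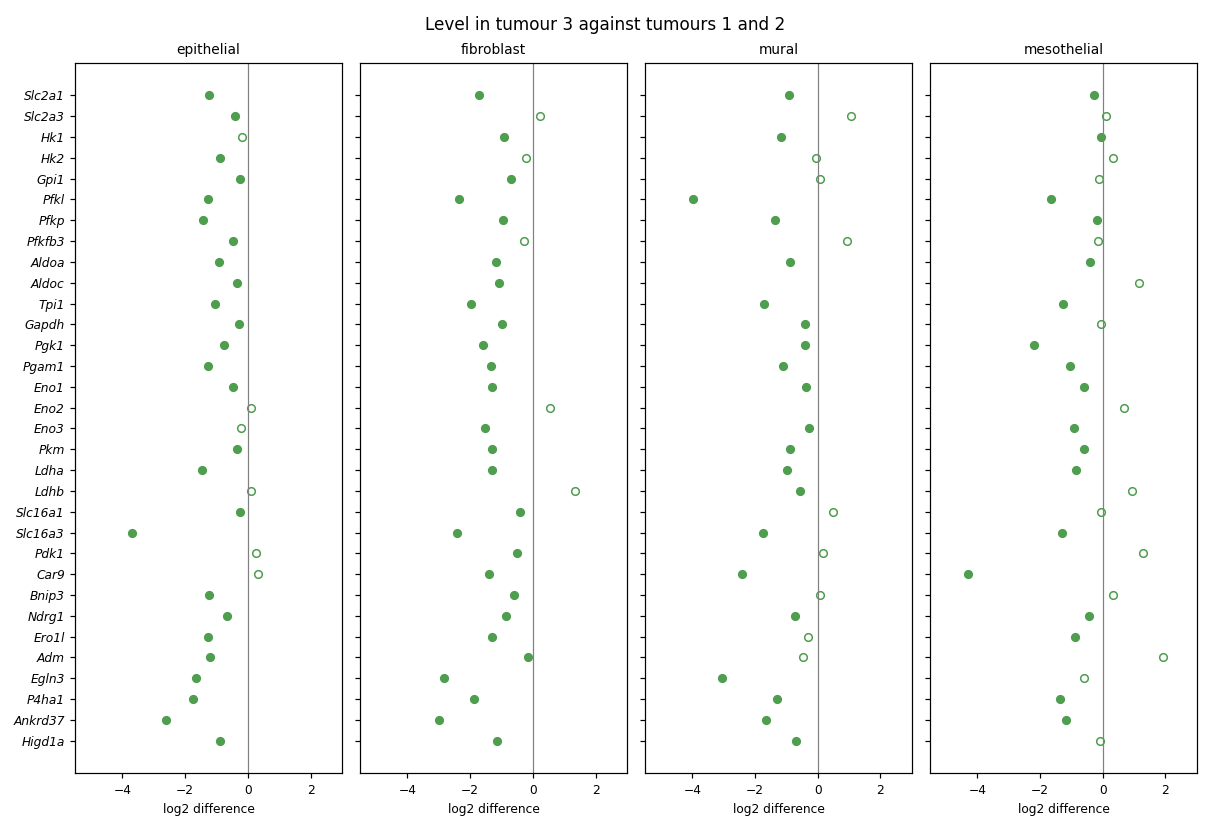
Log2 difference in CPM plus 1 (x axis) between tumour 3 and the mean of tumours 1 and 2 for each gene in 4 cell classes; filled points are genes with their lowest level in tumour 3. Most genes lie left of 0 in epithelial cells (26 of 32 filled) and fibroblasts (27 of 32), and Slc16a3 in epithelial cells lies at -3.70.

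Most members were lowest in tumour 3, a pattern looked for after the levels had been seen and given without a test, since each tumour is 1 sample. In epithelial cells 26 of 32 members had their lowest level in tumour 3, where 38.4% of all genes with at least 10 UMIs did. The counts were 27 of 32 in fibroblasts (37% of all genes), 21 of 30 in mural cells (41.7%), 18 of 32 in mesothelial cells (42.2%) and 25 of 32 in cells that passed no gate (31.9%). Tumour 2 was the highest for 14 of 32 members in epithelial cells (28.3% of all genes) and 27 of 32 in fibroblasts (31.3%). For mural cells the count was 23 of 30 (28.7%), for mesothelial cells 22 of 32 (33.1%), and without a gate 20 of 32 (31.2%). Aldoa, Ankrd37, Eno1, Ldha, Ndrg1, P4ha1, Pfkl, Pfkp, Pgam1, Pgk1, Pkm, Slc16a3, Slc2a1 and Tpi1, 14 genes, were lowest in tumour 3 in all 4 named classes with 3 tumours.

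The widest gap in epithelial cells was that of Slc16a3, 3.70 on the log2 scale of CPM plus 1 below the mean of the other 2 tumours, followed by Ankrd37 (29.3, 33.0 and 4.29 CPM). Ldhb went against this in fibroblasts and mesothelial cells, where tumour 3 was highest. In epithelial cells Hk1, Eno2, Eno3, Ldhb, Pdk1 and Car9 were not lowest in tumour 3. Car9 stood there at 32.6, 59.1 and 55.5 CPM in tumours 1, 2 and 3. Hk2, Ldhb, Pdk1, Pfkfb3 and Slc2a3 were lowest in tumour 3 in 1 of the 4 classes only and Eno2 in none. Tumour 3 also had the lowest median depth, 6025 UMIs per barcode against 8460.5 and 9052, and in epithelial cells the lowest summed level of the 6 S, G2 and M phase markers, 56.3 CPM against 150.2 and 172, and a mitochondrial share of 5.27% against 4.24% and 4.26%. The part of these in the pattern was not tested.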

How the data were processed

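Per the labels' protocols, cells of 3 tumours were sorted and run with 10x 3' v2 chemistry. The authors deposited 1 matrix of UMI counts in whole numbers, not normalized, with gene symbols and barcodes whose suffix gives the tumour. Cell Ranger 2.1.1 and Seurat 3.0 are named, without a role, in the submitters' processing notes. Aligner settings, build and gene models: not given in the sources used here. Barcodes with fewer than 500 genes or over 20% mitochondrial counts were left out, and Scrublet (in scanpy 1.11.5) removed 68, 93 and 140 doublets, leaving 5734, 5979 and 7288 cells.

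Counts were summed per tumour and class over sums of at least 20 cells and fitted with edgeR 4.0.16 (TMM, filterByExpr, quasi-likelihood test, Benjamini-Hochberg at 0.05), with the gate genes of both classes left out. The block is the tumour, since both sums of each pair are cells of 1 tumour. Standard errors are the log2 fold change over the square root of F. DESeq2 1.42.0 and other settings were tried as alternatives. The test draws each gene's spread towards that of all genes in every comparison. With 2 tumours, the endothelial comparison has 1 residual degree of freedom and borrows its spread from all genes. The fit was tested on simulated epithelial and fibroblast sums (13888 genes). It called 49 of 49 and 50 of 50 genes at log2 fold changes of -2 and 2. At -1 and 1 it called 21 of 50 and 28 of 50, and of 13689 unchanged genes it called 8. The changed genes were drawn from those with many UMIs, and were fewer than the genes called in the data. All genes were given the same spread. These rates therefore do not extend to low counts, the smaller classes or the splits. Confidence intervals are exact binomial at 95%; limits for a count of 0 are 3 counts. Values were given per tumour for the isozyme pairs and for up to 6 members per comparison with the largest called fold change of the same sign in every tumour, with up to 4 other pathway genes by the same order; the 6 members of the Egln3 split were chosen likewise. The members and lists were chosen with earlier results of these data known. The mesothelial class, the Lum alternative and the order of the tumours were chosen after seeing the data. So were genes named where a count was 5 or fewer and those of cells in no gate. The deposited table of cluster comparisons was not used here. A result on 1 other pathway gene is not reported here.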

Additional observations from a re-analysis of the deposited data

How the results depend on the processing

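Of the 36 named fold changes, none changed direction in any alternative: 339 repeats kept their side of the threshold and 35 lost it, 15 of these without the replicate block. DESeq2's size factors moved no count or call by more than 1.5 times and moved the median of all genes by under 0.1. Leaving out the replicate block (the tumour) gave 1 member higher and 3 lower in epithelial cells than in fibroblasts (3261 genes called in place of 5138), 7 and 2 against mural, 3 higher against mesothelial, and 5 and 0 against endothelial cells (1693 genes in place of 3227). It gave 1 and 1 for mural cells against fibroblasts (900 genes in place of 2110), and 0 genes called in both splits. With no filter on low counts, 5 members were higher against fibroblasts, 12 higher against mesothelial cells, 17 lower in mural cells than in fibroblasts and 1 higher with Car9 (246 genes in place of 122). DESeq2's test gave 5 higher against fibroblasts, 3 against mesothelial, and 6 higher and 1 lower against endothelial cells (1709 genes). In the splits it gave 54 genes with Car9, and 12 members of 40 genes with Egln3, in place of 21 of 146.

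One fit of all classes gave 5 members higher against fibroblasts and 8 against endothelial cells. Thinned cells gave 5 higher against fibroblasts, 7 against endothelial cells (2150 genes), 3334 genes in place of 5106 against mesothelial cells and 1 member higher in mural cells than in fibroblasts; thinning to 5000 UMIs gave 220 genes with Car9. Lum-positive fibroblasts alone gave 6 members higher in epithelial cells and 4 higher in mural cells. Leaving out each replicate gave 1 to 10 members higher (3296 to 5422 genes) against fibroblasts, 4 to 8 higher and 8 to 16 lower against mesothelial cells and 1 to 3 higher in mural cells than in fibroblasts. With Car9 it gave 0 to 7 members (68 to 258 genes), and with Egln3 10 to 21 (52 to 171 genes). It was not run against endothelial cells, since 1 pair would be left. The cause of these changes was not tested. Of the isozyme shares, Hk1 of epithelial minus mesothelial cells moved from -2.22 to -12.6 points on thinning, and Ldha of epithelial minus endothelial cells from -1.14 to -3.40. With cells in every gate the latter turned to 0.585 in the same tumours (an alternative chosen after seeing the data) and was -0.10 with tumour 2, which then reached 20 endothelial cells. Ldha of epithelial minus mural cells moved from 1.36 to 0.027 on thinning. Endothelial and mural sums are small, and members under a few UMIs there carry wide counting error.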

Other observations

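Cells that passed no gate, 809, 2193 and 1424 in tumours 1, 2 and 3 (14.1%, 36.7% and 19.5% of the kept cells), entered no comparison. They held a mixture: the 6 acinar markers summed to 10027 CPM (counts per 1000000 UMIs) in tumour 1 and 6104 in tumour 3, and to 623 in tumour 2. The 10 epithelial markers summed to 8748, 2427.5 and 6482.5 CPM in tumours 1, 2 and 3. The 8 fibroblast markers summed to 1090, 1174 and 1243 CPM in these cells. Higd1a, a mitochondrial gene of the hypoxia response, stood at 948, 376 and 129 CPM in them, where epithelial cells of the same tumours held 335, 193 and 136. Ankrd37 stood at 73.8, 42.8 and 4.92, and Slc16a3 at 87.4, 97.9 and 3.24. Eno3, the muscle enolase, stood at 58.1 in tumour 2 against 6.38 and 6.84 in tumours 1 and 3, and Pkm at 1397 against 789.8 and 509. P4ha1 stood at 41.1, 87.4 and 9.24. The classes of these cells were not assigned.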
